A study of Mus musculus with 23 samples.

Results

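Interferon-stimulated genes were followed in the proximal small intestine of wild-type and Ddit4-/- mice. They were chosen as 38 listed symbols whose values, averaged over the 23 libraries, reach 10 normalized reads or more, which 37 met, out of 16259 genes in the table and 11939 that passed the same minimum. For the other listed gene, Mx2, no value was analysed here. RNA came from whole tissue, so epithelium, lymphocytes, stroma and muscle are measured together, and in such bulk samples fewer cells of a type and less RNA per cell cannot be told apart. Ddit4 encodes an inhibitor of mTORC1 that cells make under stress, and doxorubicin is a chemotherapy drug that poisons topoisomerase and breaks DNA.

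All mice are labelled male. The Ddit4-/- libraries after doxorubicin (20 mg/kg, injected into the peritoneum) came from prefasted mice at 2, 6, 12 and 24 h and from mice fed ad libitum at 6, 12 and 24 h. The untreated Ddit4-/- libraries came from fasted mice (24 h without food), from fasted mice refed for 2 and 6 h, and from mice fed ad libitum. The 12 wild-type libraries cover the same conditions plus doxorubicin at 2 h with ad libitum food. Prefasted mice went 24 h without food before the injection and are labelled as refed for as many hours as had passed since the drug. Each combination of genotype, feeding, drug and time has 1 library, so 11 conditions give 1 matched pair of Ddit4-/- and wild type each, and no condition has a replicate of its own. The number of mice behind a library, their age and the extent of the Ddit4 deletion are not given in the sources used here.

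Interferon-stimulated genes are switched on when type I or type III interferons, or in part interferon gamma, bind their receptors. The signal activates a transcription factor complex that holds STAT2 and IRF9 and binds the interferon-stimulated response element (ISRE) in target promoters. The proteins made detect foreign or misplaced nucleic acid, block the translation and spread of viruses, and feed back on interferon signalling, and the intestinal epithelium is known to respond most to type III interferon.

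The promoters are shown first because they can hold the ISRE, although the genes were chosen by symbol and not by promoter. Promoter entries (RefSeq, build GRCm38.p6, 250 bases before to 50 bases after an annotated start) were matched by symbol for 30 of the 37 genes; Zbp1, Oas2, Rtp4, Dhx58, Usp18, Parp9 and Parp14 had no entry. The ISRE core was searched on both strands as GAAA, NN (any bases) and GAAA in a row. It occurred in 15 of the 30 genes, against 3.99% of the 27025 genes with an entry. A second motif, the gamma-activated site TTCNNNGAA, occurred in 5 of the 30 (16.7%) against 9.55% of all genes, and in Bst2 a match to it overlapped an ISRE core. A match is a description of the letters and not a measured binding site. The ISRE cores below, in capitals within 20 bases read along the gene's strand, belong to genes that passed the threshold between genotypes or after doxorubicin with ad libitum food. Those of Ddx58 (chr4:40239809-40239828, minus strand), Trim30a (chr7:104465215-104465234, minus strand) and Stat2 (chr10:128270271-128270290, plus strand) lie on the opposite strand to the gene, and that of Oas3 (chr5:120777720-120777739, minus strand) on its own strand.
Ddx58: ggcagTTTCGATTTCctatg
Trim30a: tttagTTTCTTTTTCtcagt
Stat2: cctggTTTCAGTTTCctttc
Oas3: gaggaGAAAACGAAAgtgaa

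Oas1a and Isg15 had several overlapping cores close to the start, 2 in Oas1a and 3 in Isg15, while Oasl2 and Irf7 had none in the window. The 250 bases before the annotated start are given for these 4 genes, along the gene's strand, with ISRE cores in capitals: Oas1a at chr5:120907526-120907775 (minus strand), Isg15 at chr4:156200819-156201068 (minus strand), Oasl2 at chr5:114896684-114896933 (plus strand) and Irf7 at chr7:141266425-141266674 (minus strand).
Oas1a: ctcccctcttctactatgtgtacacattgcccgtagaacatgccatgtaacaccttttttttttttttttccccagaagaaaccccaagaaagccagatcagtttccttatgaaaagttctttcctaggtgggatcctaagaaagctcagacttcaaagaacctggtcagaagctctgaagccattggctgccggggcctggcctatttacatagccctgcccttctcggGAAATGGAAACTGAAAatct
Isg15: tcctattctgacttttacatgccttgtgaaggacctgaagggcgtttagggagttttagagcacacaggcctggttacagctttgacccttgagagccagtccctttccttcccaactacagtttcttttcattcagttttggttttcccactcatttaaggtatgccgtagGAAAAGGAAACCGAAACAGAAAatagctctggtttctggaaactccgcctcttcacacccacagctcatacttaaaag
Oasl2: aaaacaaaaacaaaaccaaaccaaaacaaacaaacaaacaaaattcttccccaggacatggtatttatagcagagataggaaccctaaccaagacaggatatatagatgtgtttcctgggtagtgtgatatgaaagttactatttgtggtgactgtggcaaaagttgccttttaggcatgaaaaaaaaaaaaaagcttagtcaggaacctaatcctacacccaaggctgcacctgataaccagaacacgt
Irf7: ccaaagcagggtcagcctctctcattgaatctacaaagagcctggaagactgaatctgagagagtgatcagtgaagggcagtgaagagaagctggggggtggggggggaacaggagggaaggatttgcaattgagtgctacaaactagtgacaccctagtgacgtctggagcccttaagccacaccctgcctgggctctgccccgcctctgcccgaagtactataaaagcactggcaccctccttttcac
The absence of the core in this window says only that these letters are not there. In the plot of core positions along each promoter, the cores of Oas1a, Oas1g, Gbp3 and the upstream Trim30a start lie within 50 bases before the start, and those of Ifih1, Eif2ak2, Ddx58 and the other Trim30a start lie after it.

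**Figure D1:**
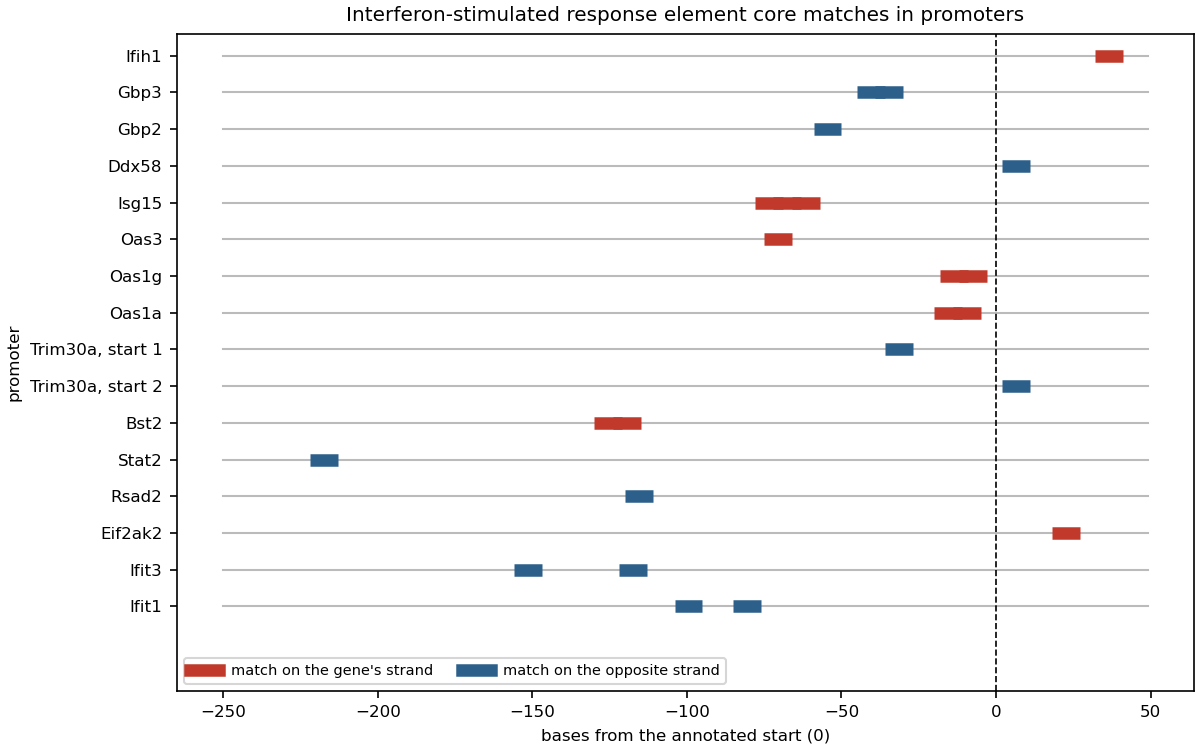
Positions of ISRE core matches (GAAA, NN and GAAA in a row, 10 bases each) in the promoters of 15 interferon-stimulated genes, in bases from the annotated start at 0; grey lines span the 250 bases before and 50 bases after the start, red bars are matches on the gene's strand and blue bars on the opposite strand. Trim30a has 2 annotated starts with a match, and overlapping matches appear as 1 longer bar.

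Libraries held 11.42 to 23.43 M reads assigned to genes (M stands for 1e+06), and values are normalized reads, that is reads divided by 1 size factor per library. Ddit4 was at 0 to 11.3 normalized reads in Ddit4-/- libraries, against 66.9 to 414 in wild type. Enterocyte markers were all detected, as the tissue label implies, while 3 Ddit4-/- untreated libraries (ad libitum, fasted, refed 2 h) held 0 to 5 reads of 4 Y-linked genes, against 1088 to 2030 in the other 20, although labelled male. Pancreatic transcripts were abundant in the untreated Ddit4-/- fasted and wild-type refed 6 h libraries. The titles of the 4 wild-type prefasted doxorubicin libraries say untreated, and the drug label was followed. Counts that rest on these libraries are also given without them.

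Across libraries the interferon-stimulated genes were highest in 4 Ddit4-/- libraries after 6 to 24 h of doxorubicin and lowest in 3 untreated libraries from fasted or 2 h refed mice. The mean of their log2 values relative to each gene's own mean was 0.711 in the Ddit4-/- ad libitum library at 24 h of doxorubicin, 0.642 in that at 12 h, 0.640 in the prefasted one at 12 h and 0.599 in the ad libitum one at 6 h. The lowest were -0.980 in the wild-type untreated library refed for 2 h, -0.703 in the wild-type fasted library and -0.590 in the Ddit4-/- untreated library refed for 2 h. All 37 genes were above their own mean in the Ddit4-/- libraries of 24 h with ad libitum food and of 12 h with a prefast, and 0 were in the wild-type library refed for 2 h, where 22 of them had their lowest value. The heatmap of all 37 genes shows these libraries as the reddest and bluest columns.

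**Figure D2:**
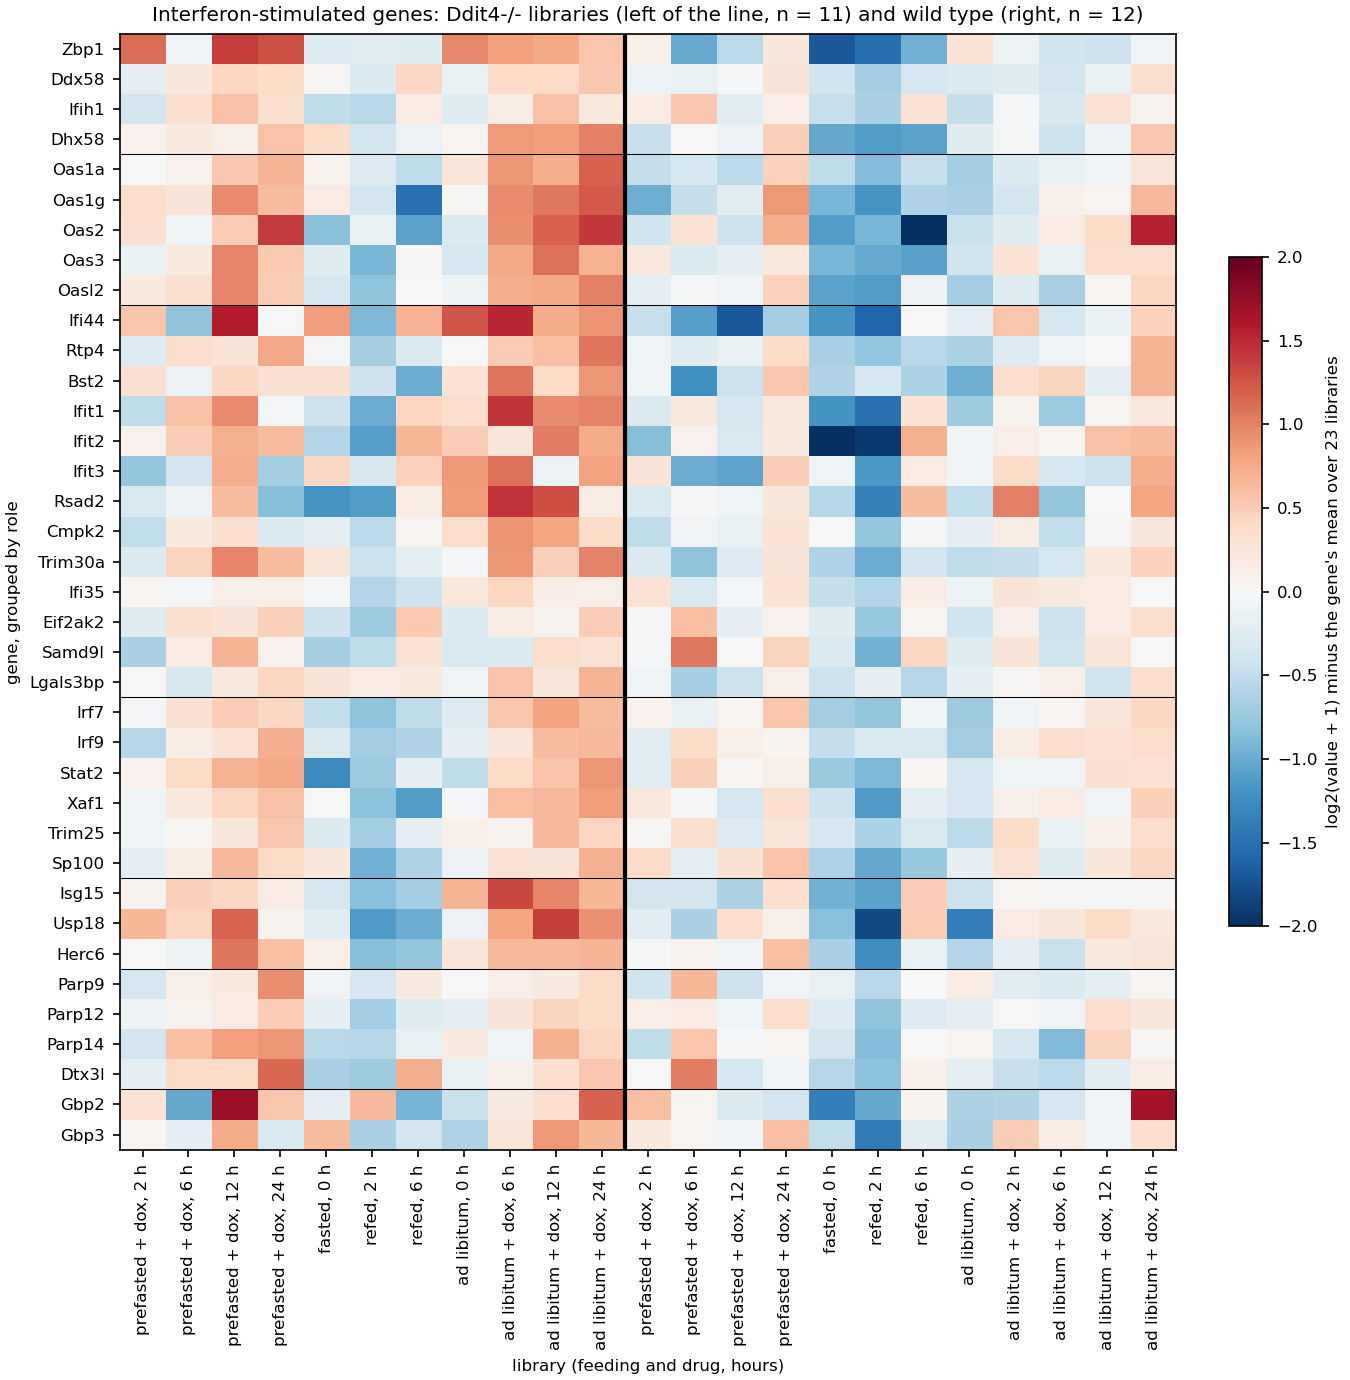
log2(value + 1) of 37 interferon-stimulated genes minus each gene's mean over 23 libraries (colour, from -2 in blue to 2 in red), with genes in rows by role and 1 library per column, Ddit4-/- left of the line and wild type right of it. The wild-type refed 2 h column is below the mean for all 37 genes, and the Ddit4-/- ad libitum doxorubicin columns are mostly above it.

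The genes differed widely in how far they moved. Oas2 varied most over the 23 libraries, with an SD of 1.02 on the log2 scale and values from 8.36 (5 reads) to 209 normalized reads, and Ifi44, Ifit2 and Zbp1 followed with SDs of 0.95, 0.90 and 0.83. Ifi35 varied least, with an SD of 0.29 and values from 1636 to 3313 normalized reads. The SDs of low genes include more counting error, since 1 read stood for 0.705 to 1.67 normalized reads.

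Loss of Ddit4 was examined in the 11 matched pairs. The group stood higher in the knockout: 9 of 37 genes rose and 0 fell (limma, adjusted p under 0.05), where 0.436% of the 11939 genes tested rose and 0.142% fell. The median log2 difference of the 37 was 0.37, against -0.01 over all genes, and it was positive for 36 of them, against 47.5% of all genes. An unadjusted p under 0.05 was reached by 23 of the 37 genes and by 12.0% of all genes. Ranges of the genotypes overlapped for every one of the 37 over all conditions, as for nearly all genes. Of all genes 0.008% lay wholly above and 0.008% wholly below wild type. The differences given here are those within pairs.

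Of the 4 sensors of nucleic acid, 3 rose. Zbp1, which binds Z-form nucleic acid and can start necroptosis, had 558 to 1751 normalized reads (median 1131) in Ddit4-/- libraries, against 207 to 811 (median 505) in wild type. It was higher in the knockout library of all 11 pairs, 2.14-fold on average (log2 1.10 ± 0.11, SE, adjusted p = 8e-05; folds here are on the log2(value + 1) scale). In untreated mice it was at 558 in the fasted, 579.6 in the 2 h refed, 563 in the 6 h refed and 1297 normalized reads in the ad libitum Ddit4-/- library, against 207, 235, 343 and 811 in wild type in the same order. After doxorubicin the prefasted Ddit4-/- libraries of 2, 6, 12 and 24 h had 1453, 633, 1751 and 1609.7, against 722, 330.1, 458 and 778 in wild type. Dhx58, which encodes LGP2, a regulator of RNA sensing, had 167 to 435 normalized reads (median 248) in Ddit4-/- libraries, against 98.9 to 315 (median 191) in wild type. It was higher in 11 of 11 pairs (log2 0.65 ± 0.13, adjusted p = 0.035). Ddx58, the RNA sensor RIG-I, had 1209 to 2124 (median 1879) in Ddit4-/- libraries and 913 to 1845 (median 1280.1) in wild type, higher in 10 of 11 pairs (log2 0.37 ± 0.08, adjusted p = 0.046). Ifih1, the RNA sensor MDA5, did not pass, at log2 0.12 ± 0.10 (adjusted p = 0.70).

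The OAS enzymes, which make oligoadenylates that switch on RNase L when they meet double-stranded RNA, had positive differences in all 5 members, and 2 of them rose. Oas1a had 552 to 1788 normalized reads (median 935) in Ddit4-/- libraries, against 433 to 1084 (median 595) in wild type, and was higher in 10 of 11 pairs (log2 0.64 ± 0.10, adjusted p = 0.0091). The exception was the untreated pair refed for 6 h, at 552 in Ddit4-/- and 570.0 in wild type. Oasl2, an OAS-like protein, had 1886 to 6584 (median 4153) in Ddit4-/- libraries and 1512 to 4509.8 (median 2959) in wild type, higher in 11 of 11 pairs (log2 0.57 ± 0.11, adjusted p = 0.022). Oas1g (0.64 ± 0.17), Oas2 (0.59 ± 0.19) and Oas3 (0.50 ± 0.12) had log2 differences of like size and adjusted p of 0.11, 0.19 and 0.085. Oas1a and Oas1g are close paralogs, and how reads that match both were counted is not stated, so their values are uncertain.

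Among the 13 IFIT genes and other effectors, 4 rose and 12 differences were positive. Ifi44, an interferon-induced cytoplasmic protein, had 28.8 to 165 normalized reads (median 92.5) in Ddit4-/- libraries, against 16.1 to 80.8 (median 41.2) in wild type, higher in 11 of 11 pairs (log2 1.21 ± 0.25, adjusted p = 0.036). Its pair differences ran from 0.30 to 3.27, the largest between 165 in the prefasted Ddit4-/- library and 16.1 in the prefasted wild-type library at 12 h of doxorubicin. Trim30a, a TRIM-family protein, had 296 to 793 (median 540.3) in Ddit4-/- libraries and 199.7 to 549 (median 308) in wild type (log2 0.64 ± 0.12, adjusted p = 0.028, higher in 11 of 11 pairs). Lgals3bp, a secreted galectin-binding glycoprotein, had 4822 to 9620.4 (median 6876) in Ddit4-/- libraries and 3777 to 7466 (median 5314) in wild type (log2 0.43 ± 0.08, adjusted p = 0.016, 11 of 11 pairs). Rtp4, of the receptor transporter protein family, had 510.1 to 1696 (median 971) in Ddit4-/- libraries and 473 to 1294 (median 711) in wild type (log2 0.40 ± 0.08, adjusted p = 0.036, 10 of 11 pairs). The plot of the 9 genes by pair shows most lines sloping down towards wild type.

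**Figure D3:**
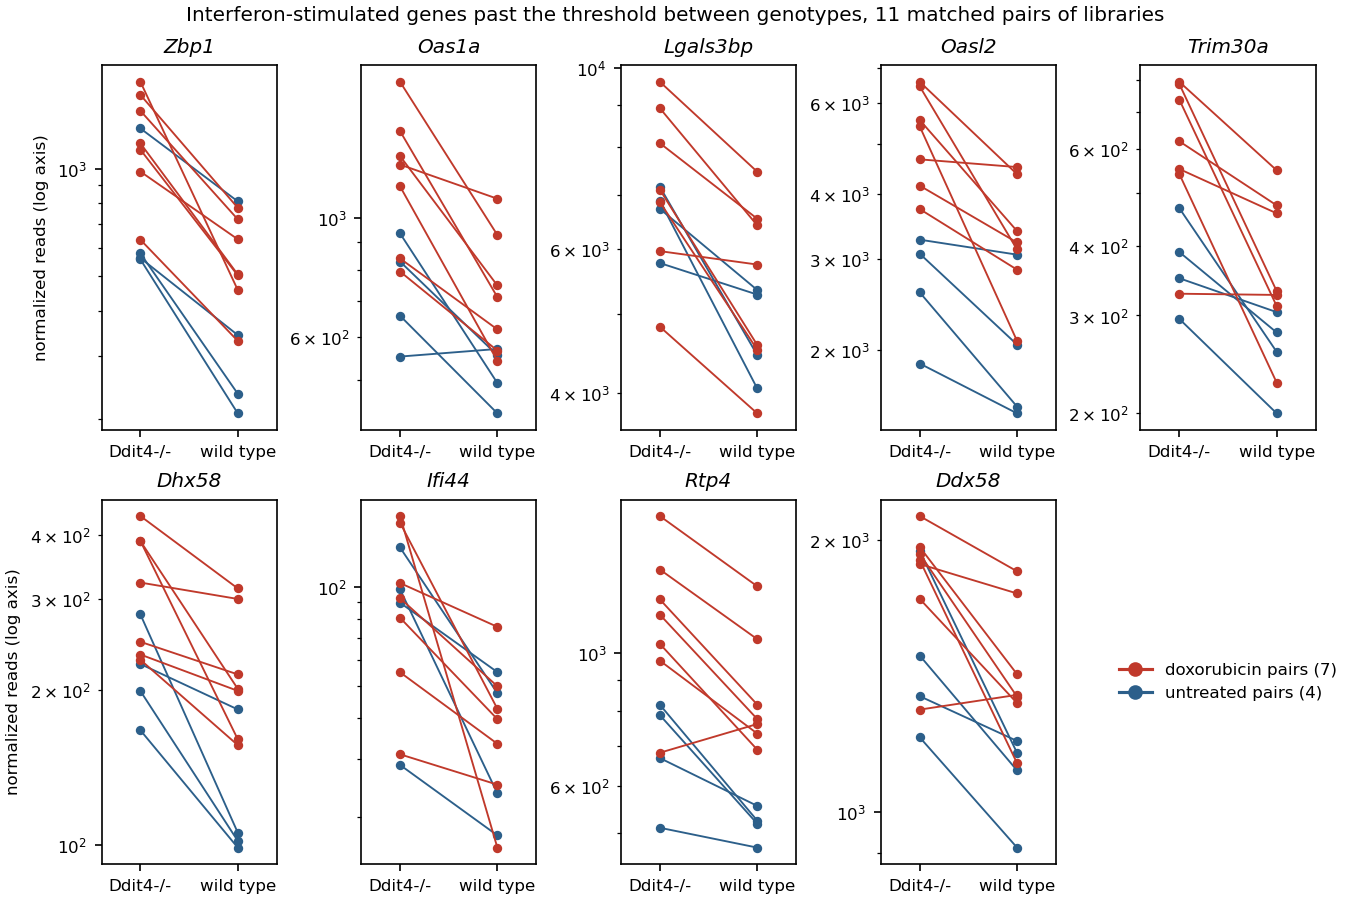
Normalized reads (log axis) of the 9 interferon-stimulated genes past the threshold between genotypes, in Ddit4-/- (left) and wild-type (right) libraries; each line joins the 2 libraries of 1 matched pair, red for the 7 doxorubicin pairs and blue for the 4 untreated pairs. Zbp1, Lgals3bp, Oasl2, Trim30a, Dhx58 and Ifi44 are higher in Ddit4-/- in 11 of 11 pairs.

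The effectors that did not pass spanned a wide range. Ifit1, which binds foreign RNA ends, had a log2 difference of 0.69 ± 0.17 (adjusted p = 0.090), from 1309 to 7009 normalized reads in Ddit4-/- libraries and 927 to 3146 in wild type, and Ifit2 had 0.63 ± 0.18 and Ifit3 0.42 ± 0.22. Bst2, which tethers budding virus to the cell, had 0.48 ± 0.15, Rsad2, the viperin gene, 0.26 ± 0.25, and Eif2ak2, the RNA-activated kinase PKR, 0.13 ± 0.09. Cmpk2, a nucleotide kinase next to Rsad2 in the genome, and Ifi35 had 0.29 ± 0.13 and 0.05 ± 0.09. Samd9l was the 1 gene with a negative value, -0.07 ± 0.12. None of the 6 signalling genes passed, with log2 differences of 0.07 to 0.23: the transcription factors Irf7 (0.19 ± 0.09), Irf9 (0.07 ± 0.10) and Stat2 (0.19 ± 0.11), and Xaf1, Trim25 and Sp100. In the ISG15 system, Isg15, a ubiquitin-like protein, had 0.54 ± 0.18 (adjusted p = 0.20), Usp18, the enzyme that removes it, 0.55 ± 0.19 (adjusted p = 0.23), and Herc6, its main ligase in mice, 0.39 ± 0.15 (adjusted p = 0.28). The ADP-ribosylation genes Parp9, Parp12, Parp14 and Dtx3l lay between 0.08 and 0.31, and the guanylate-binding proteins Gbp2 and Gbp3 at 0.36 ± 0.28 and 0.24 ± 0.18. Parp9 and Dtx3l share exonic bases with each other (9.4% and 8.0% of their exons), and Rtp4 (13.9%), Herc6 (13.7%) and Ifi35 (16.8%) share some with other annotated genes. The overlaps of Parp9, Dtx3l and Ifi35 are with genes on the opposite strand, and the libraries are non-directional, so reads there cannot be told apart by strand. Those of Rtp4 and Herc6 are with genes on the same strand.

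The difference was not of equal size in every pair. All 37 genes were higher in Ddit4-/- in the prefasted pair at 12 h of doxorubicin (median log2 0.80), 36 in the ad libitum pair at 6 h (0.63), 35 in that at 12 h (0.55) and 34 in that at 24 h (0.34). Among untreated pairs the counts were 33 with ad libitum food (median 0.46), 29 after the fast (0.58) and 32 after 2 h of refeeding (0.32). Counts were lower in 4 pairs: 24 in the prefasted pair at 24 h (median 0.19), 23 in that at 6 h (0.28), 18 in that at 2 h (-0.01) and 19 in the untreated pair refed for 6 h (0.02).

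Upstream and neighbouring genes were counted in lists chosen with earlier results of these data known. Of the interferon genes listed, Ifng had at most 9 reads in a library and Ifnk at most 7, too few to test. Of 10 receptors and kinases, 11 further sensors and adaptors and 9 negative regulators, 0 passed in limma, edgeR or DESeq2, and 1, 2 and 3 were at an unadjusted p under 0.05. Their median log2 differences were 0.04, 0.10 and 0.16. Of 24 interferon gamma targets 5 rose and 0 fell (median 0.52), led by the immunity-related GTPases Irgm2 (0.83 ± 0.13, adjusted p = 0.0094) and Igtp (0.92 ± 0.17, adjusted p = 0.020) and the immunoproteasome subunit Psmb9 (0.56 ± 0.10, adjusted p = 0.016). Of 46 other interferon-stimulated genes 3 rose and 0 fell (median 0.22): Mov10 (0.57 ± 0.12), Ifit1bl1 (0.98 ± 0.20) and Lgals9 (0.34 ± 0.07).

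Lymphocyte markers moved with the same contrast. Of 8 cytotoxic lymphocyte markers tested 3 rose and all 8 differences were positive (median 0.62), and their summed level was 4026 to 12529.7 normalized reads in Ddit4-/- libraries, against 2794 to 6398 in wild type. For the 9 T cell markers tested the median was 0.47, and 0 passed in limma and edgeR, 4 in DESeq2 and 6 at an unadjusted p under 0.05. They had a summed level of 1348 to 3184 in Ddit4-/- libraries, against 957 to 1710.9 in wild type, and no marker of either list was at 0 in all libraries. The 10 macrophage markers had a median of -0.16, with summed levels of 357 to 1423 in Ddit4-/- and 307 to 1581 in wild type. The 9 pancreatic acinar markers tested were all lower (median -2.74), with 0 past the threshold in limma and edgeR, 8 in DESeq2 and 1 at an unadjusted p under 0.05. Their summed level was 0 to 65144 in Ddit4-/- and 8.4 to 169633 in wild type. Depth differed as well, with a median of 20.54 M reads in Ddit4-/- libraries and 15.11 M in wild type. The part of these markers and of depth in the result was not tested.

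The count of 9 depends on which libraries enter. Without the 3 libraries with few Y-linked reads it was 1 (Zbp1), and it was 1 (Zbp1) in the 7 doxorubicin pairs alone, 0 in the 4 untreated pairs alone and 1 (Zbp1) without the 4 libraries with conflicting titles, while the median difference was 0.38, 0.40, 0.33 and 0.45 in these settings. Without the 2 libraries with pancreatic transcripts 6 genes passed, of which 3 were among the 9 (Zbp1, Oas1a and Oasl2), and the median was 0.42. The count was 2 in the 4 ad libitum pairs alone and 0 in the 4 prefasted doxorubicin pairs alone. Leaving out 1 library gave 3 genes without either fasted library, 4 without either untreated library refed for 2 h, either ad libitum doxorubicin library of 6 h or of 12 h, or the prefasted Ddit4-/- library of 12 h, and 5 without the prefasted wild-type library of 12 h or the ad libitum Ddit4-/- library of 24 h. On recovered reads edgeR called 8 of the 9 (without Ddx58) and DESeq2 called 14. Over all genes limma called 69, edgeR 60 and DESeq2 317. The limma count over all genes was 16 without the 3 libraries with few Y-linked reads and 20 without conflicting titles. It was 12 in the doxorubicin pairs alone and 1 in the untreated pairs alone.

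Whether doxorubicin changed the knockout difference was tested as 7 doxorubicin pairs minus 4 untreated pairs. No gene of the group passed (0 of 37 in limma, edgeR and DESeq2), where 0% of all genes did in limma. Of the 37, 2 were at an unadjusted p under 0.05, against 4.16% of all genes. The median of the 37 was 0.09 on the log2 scale. Stat2 had the smallest p, at 0.59 ± 0.18 (adjusted p = 0.98), followed by Parp14 (0.45 ± 0.19), Isg15 (0.53 ± 0.35) and Xaf1 (0.34 ± 0.27), each with an adjusted p of 0.98. For Zbp1 the term was 0.10 ± 0.23. With the 3 with few Y-linked reads left out, 1 untreated pair is left, and the median of the 37 was then 0.42. The count was 0 without the pancreatic libraries and 0 without those with conflicting titles, the last an alternative chosen after seeing the data.

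Doxorubicin with ad libitum food was set against untreated ad libitum mice, as the mean of 6, 12 and 24 h over both genotypes. Of the 37 genes 10 rose and 0 fell, where 4.58% of all genes rose and 3.66% fell (8.24% in either direction). The median log2 difference was 0.50, against 0.00 over all genes, and 32 of the 37 were positive. An unadjusted p under 0.05 was reached by 21 of the 37, against 24.0% of all genes. For 10 genes every doxorubicin library was above both untreated ones, as for 13.3% of all genes.

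The transcription factors of the interferon response rose. Irf7, which drives interferon genes themselves, had 5572, 6611 and 5868 normalized reads at 6, 12 and 24 h in Ddit4-/- mice and 3949.9, 4502 and 5077 in wild type, against 3164 in the untreated Ddit4-/- and 2301 in the untreated wild-type library. The groups did not overlap (log2 0.94 ± 0.18, adjusted p = 0.0054). Irf9, a DNA-binding subunit of the complex on the ISRE, had 1145, 1483 and 1508 in Ddit4-/- and 1210.3, 1184 and 1238 in wild type after doxorubicin, against 843 in Ddit4-/- and 599 in wild type untreated (0.86 ± 0.19, adjusted p = 0.015). Stat2 had 1173, 1312 and 1634 in Ddit4-/- and 842, 1098 and 1079 in wild type, against 624 in Ddit4-/- and 690.0 in wild type untreated, again without overlap (0.83 ± 0.21, adjusted p = 0.025). Xaf1 (0.64 ± 0.25), Trim25 (0.46 ± 0.16) and Sp100 (0.41 ± 0.20) did not pass.

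Of the 5 OAS enzymes 4 rose. Oas2 had 136, 163 and 191 normalized reads at 6, 12 and 24 h of doxorubicin in Ddit4-/- and 79.7, 92.0 and 209 in wild type, against 58.7 in Ddit4-/- and 51.5 in wild type untreated (log2 1.30 ± 0.36, adjusted p = 0.035). Oas3 had 2883, 3652 and 2775 in Ddit4-/- and 1539, 2174 and 2164 in wild type, against 1341 in Ddit4-/- and 1296 in wild type untreated (0.89 ± 0.24, adjusted p = 0.029). Both genes were above the untreated libraries in every doxorubicin library. Oasl2 (0.77 ± 0.20, adjusted p = 0.030) and Oas1a (0.68 ± 0.20, adjusted p = 0.041) rose in all 6 comparisons within genotype, but their wild-type doxorubicin values overlapped the untreated Ddit4-/- value: Oas1a was at 712, 748 and 929 in wild type after the drug and at 935 in the untreated Ddit4-/- library. Oas1g had 0.99 ± 0.32 (adjusted p = 0.073).

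Usp18 had the largest difference of the group, at 1172, 1758 and 1266 normalized reads in Ddit4-/- and 794, 874 and 782 in wild type after doxorubicin, against 623 in Ddit4-/- and 259.7 in wild type untreated (log2 1.39 ± 0.36, adjusted p = 0.028), with no overlap. Its substrate gene Isg15 had 2485, 1929 and 1557 in Ddit4-/- and 1003, 964 and 995 in wild type, against 1582 in Ddit4-/- and 727 in wild type untreated, so of these times 6 h was the highest in each genotype and the groups overlapped (0.37 ± 0.34, adjusted p = 0.54). Rtp4 (0.77 ± 0.16, adjusted p = 0.0087) was the 1 effector past the threshold, and Parp12, a mono-ADP-ribosyltransferase (0.45 ± 0.12, adjusted p = 0.035), the 1 of the PARP group. Parp9 and Parp14 had -0.03 ± 0.21 and -0.01 ± 0.20. Ifit1 (0.66 ± 0.33), Ifit2 (0.33 ± 0.35), Ifit3 (-0.11 ± 0.43), Rsad2 (0.30 ± 0.48) and Ifi44 (-0.01 ± 0.48) did not pass and had the wide errors seen in the plot of estimates. Zbp1 went the other way from the median without passing: 1178, 1131 and 982 after doxorubicin against 1297 untreated in Ddit4-/-, and 506, 503 and 635 against 811 in wild type (-0.41 ± 0.21, adjusted p = 0.24).

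**Figure D4:**
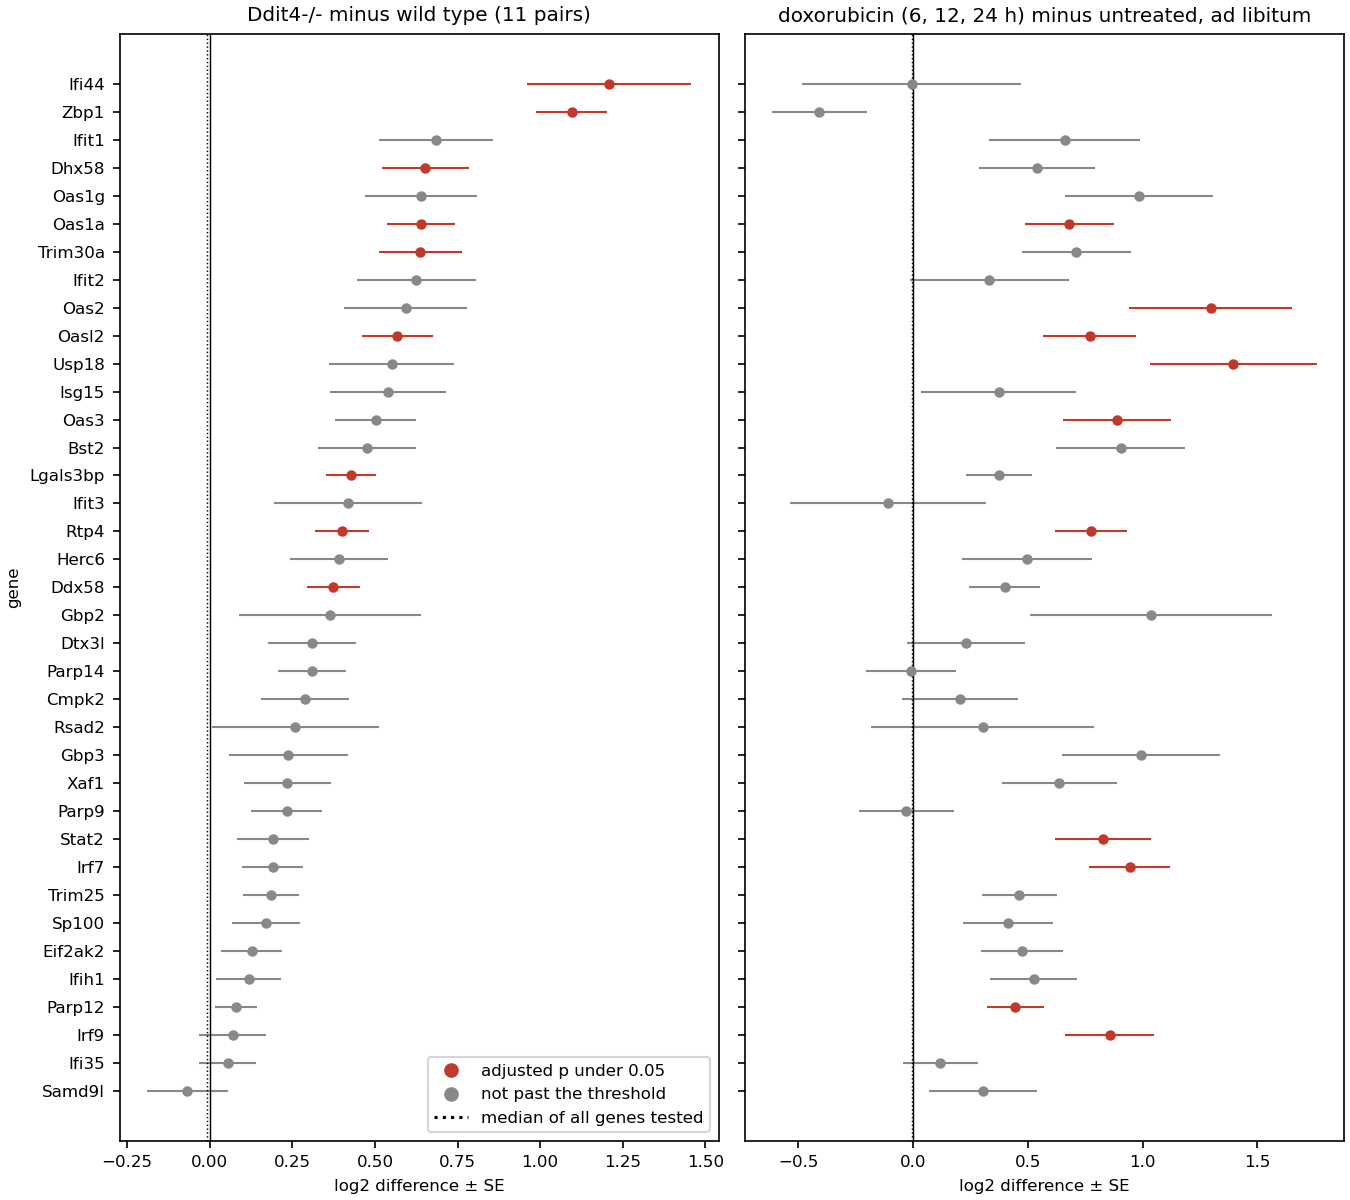
log2 differences with standard errors of the 37 interferon-stimulated genes for Ddit4-/- minus wild type (left, 11 pairs) and for doxorubicin minus untreated with ad libitum food (right, mean of 6, 12 and 24 h), genes in the order of the left panel, red where the adjusted p is under 0.05, dotted line at the median of all genes tested. On the left Ifi44 (1.21) and Zbp1 (1.10) lie farthest right, while on the right Zbp1 is at -0.41 and Usp18 at 1.39.

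Single times, given without a test, had a median log2 difference over the 37 genes of 0.30 at 6 h, 0.56 at 12 h and 0.70 at 24 h against the untreated ad libitum libraries, with 30, 33 and 36 genes positive. Rtp4 stood at 0.53, 0.61 and 1.18, Oas2 at 0.91, 1.14 and 1.84, and Isg15 at 0.56, 0.35 and 0.21. In wild type, where a 2 h library exists, Irf7 went through 2301 untreated, 3619 at 2 h, 3949.9 at 6 h, 4502 at 12 h and 5077 normalized reads at 24 h, as the plot by hour shows.

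**Figure D5:**
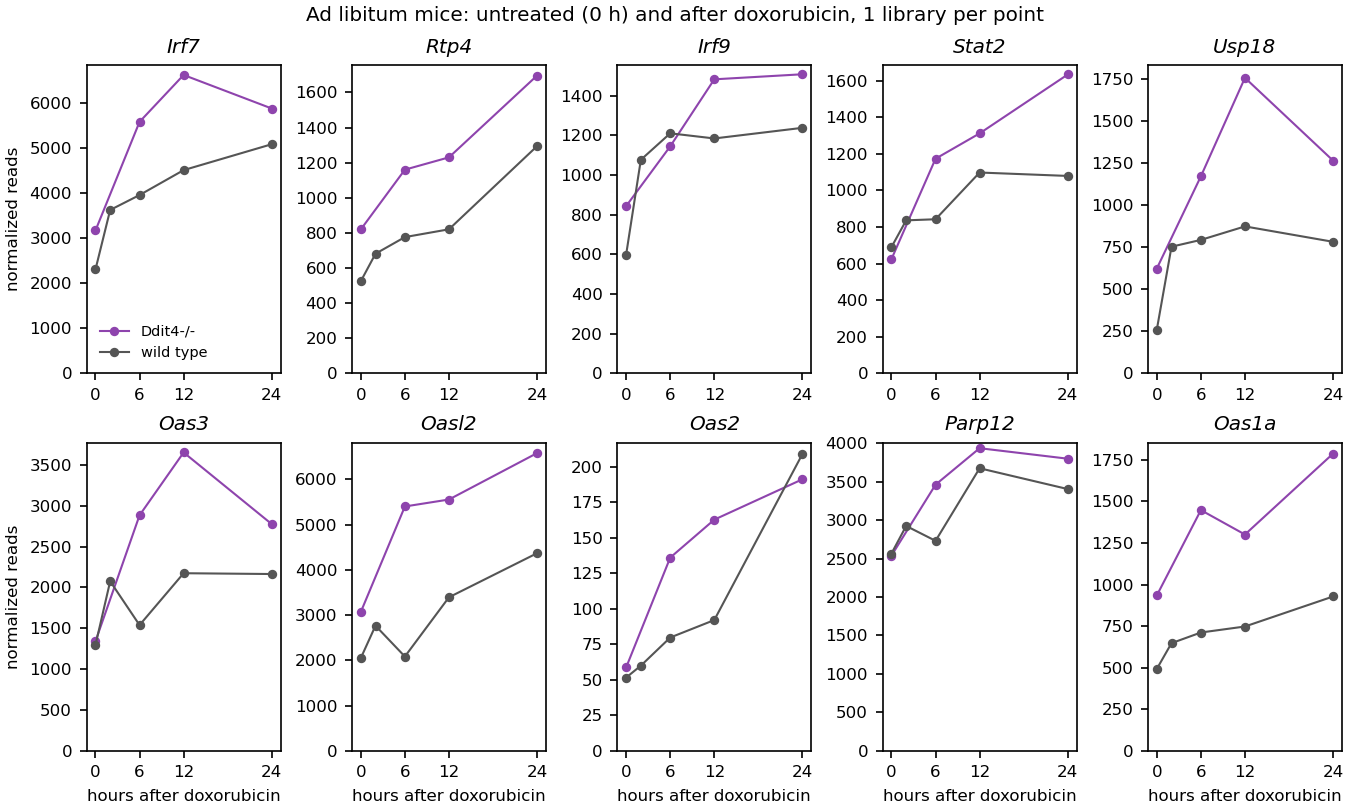
Normalized reads (linear axis from 0) against hours after doxorubicin in mice fed ad libitum, 0 h being untreated, for the 10 interferon-stimulated genes that rose with the drug; purple is Ddit4-/- (0, 6, 12, 24 h), grey is wild type (0, 2, 6, 12, 24 h), 1 library per point. Every gene is lowest at 0 h in each genotype, and Irf7 in wild type reaches 5077 at 24 h.

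Among the other lists, Il10rb (0.65 ± 0.16, adjusted p = 0.019), a receptor chain shared with type III interferon, and Jak2 (0.78 ± 0.22, adjusted p = 0.036) rose of 10 receptors and kinases. Tbk1, the kinase that activates IRFs, rose (0.57 ± 0.16) and the RNA sensor gene Tlr3 fell by 0.73 ± 0.21 on the log2 scale among 11 sensors and adaptors. Of 24 interferon gamma targets 0 rose and 1, Psmb10, fell, and of 46 other interferon-stimulated genes 2 rose and 2 fell. Cell type markers moved with the drug: Paneth cell markers summed to 4408 to 13961 normalized reads in the 6 doxorubicin libraries and to 21944.5 and 27734 in the 2 untreated ones, and stem cell markers to 849 to 1348 after doxorubicin against 2777 and 3340.0 untreated. T cell markers summed to 1366 to 2124 after doxorubicin against 1601 and 1049 untreated, and all 9 tested had positive differences (median log2 0.42, 1 higher). Differences were also positive for 8 of 8 cytotoxic lymphocyte markers (median 0.46) and 9 of 10 macrophage markers (median 0.73), with 0 past the threshold. For B cell markers 0 of 3 were positive (median -0.84). Fat tissue markers summed to 4017 to 6070 against 2899 and 2481 (median log2 2.82 of 6 tested, 0 past the threshold). Smooth muscle markers summed to 142 to 1023 against 1873 and 512 (median log2 -1.73 of 4 tested, 2 lower). Their part in the result was not tested. Because 1 untreated time serves for all 3 times after the drug, time of day was not matched.

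Only 2 untreated libraries stand behind this comparison. The calls were lost without either of them, which leaves the other alone, and calls over all genes fell as well. The Ddit4-/- one is among those lacking Y-linked reads, without which the median difference was 0.62. The count was 3 without the Ddit4-/- doxorubicin library of 6 h (672 over all genes) or of 12 h (636) and 4 without that of 24 h (566). The median difference stayed between 0.41 and 0.64 over the 30 alternatives run. The recovered reads gave 10 genes with edgeR and 14 with DESeq2. Over all genes limma called 984, edgeR 966 and DESeq2 1484.

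Prefasted mice allowed doxorubicin and refeeding to be matched at 2 and 6 h with refed mice that got no drug (4 pairs). Of the 37 genes 2 rose and 0 fell, where 0.377% of all genes rose and 0.251% fell. The median difference was 0.46, with 34 genes positive and 22 at an unadjusted p under 0.05, against 15.2% of all genes. Parp12 had 2688 and 3049.7 normalized reads at 2 and 6 h in Ddit4-/- and 3178 and 3251 in wild type after doxorubicin, against 1796 and 2455 in Ddit4-/- and 1664 and 2424 in wild type without it (log2 0.56 ± 0.11, adjusted p = 0.031). Sp100, a nuclear body protein, had 1370.1 and 1735 in Ddit4-/- and 2046 and 1369 in wild type, against 807 and 1015 in Ddit4-/- and 767 and 924 in wild type without it (0.88 ± 0.17, adjusted p = 0.033). Neither gene's groups overlapped, as was so upward for 7 of the 37 genes and 2.31% of all genes.

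Zbp1 (0.76 ± 0.18, adjusted p = 0.063) and Oas2 (1.30 ± 0.31, adjusted p = 0.066) had the next smallest p. The 2 times differed: at 2 h the median over the 37 genes was 0.63 with 36 positive, and at 6 h it was 0.23 with 30 positive, each untested. Zbp1 stood at 1.47 at 2 h and 0.06 at 6 h, Usp18 at 1.70 and 0.14, and Oas2 at 0.48 and 2.12, the last against a wild-type value of 8.36 normalized reads (5 reads). The low level of the untreated libraries refed for 2 h enters the 2 h value.

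The prefasted count moved with single libraries. Leaving out either untreated library of 2 h of refeeding gave 0, as did leaving out the prefasted wild-type doxorubicin library of 2 h or of 6 h. It was 1 without the untreated Ddit4-/- library refed for 6 h, and that gene was neither Parp12 nor Sp100. Without either ad libitum doxorubicin library of 24 h it was 1, which was Parp12 or Sp100. The count was 4 without the prefasted Ddit4-/- library of 2 h. It was 10 without the untreated wild-type library refed for 6 h, which holds pancreatic transcripts (11 without both libraries that do). Leaving out the 3 with few Y-linked reads gave 0, and leaving out those with conflicting titles gave 0. The recovered reads gave 2 genes with edgeR and 10 with DESeq2. Over all genes limma called 75, edgeR 70 and DESeq2 383, and limma called 258 without the 2 libraries with pancreatic transcripts.

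The later response was set against the earlier one as 24 h minus 6 h of doxorubicin over both genotypes and feedings (4 pairs). No gene of the group passed in limma or edgeR, where 0.0921% of all genes rose and 0.134% fell in limma. DESeq2 called 4 of the group and 283 of all genes. Of the 37, 15 were at an unadjusted p under 0.05, against 12.3% of all genes. The median was 0.32, with 34 of 37 positive. Rtp4 had the smallest p, with 1380.4 and 1696 normalized reads at 24 h in prefasted and ad libitum Ddit4-/- mice and 1056 and 1294 in wild type, against 1036 and 1160.0 in Ddit4-/- and 689 and 776 in wild type at 6 h (log2 0.58 ± 0.14, adjusted p = 0.094). Its groups overlapped, between 1056 in wild type at 24 h and 1160.0 in Ddit4-/- at 6 h. Lgals3bp (0.47 ± 0.12, adjusted p = 0.13), Zbp1 (0.66 ± 0.18, adjusted p = 0.13) and Oas2 (0.94 ± 0.31, adjusted p = 0.20) followed, and Isg15 was at -0.08 ± 0.29. Without the libraries with conflicting titles, an alternative also chosen after seeing the data, the count was 0 and the median 0.35.

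A prefast before doxorubicin was tested against ad libitum food in 7 pairs matched on genotype and time. No gene of the group passed in limma, edgeR or DESeq2, as 0% of all genes did in limma, and 12 of the 37 were at an unadjusted p under 0.05, against 6.42% of all genes. The median log2 difference was -0.17, and 27 of 37 were negative. Isg15 had the smallest p: the prefasted libraries had 1369, 1306 and 1103 normalized reads at 6, 12 and 24 h in Ddit4-/- and 761, 759, 632 and 1221 at 2, 6, 12 and 24 h in wild type, against 2485, 1929 and 1557 in Ddit4-/- and 1024, 1003, 964 and 995 in wild type with ad libitum food. It was lower in 6 of 7 pairs, the exception being wild type at 24 h (log2 -0.44 ± 0.12, adjusted p = 0.75).

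Usp18 was lower in all 7 pairs (-0.40 ± 0.12), Bst2 in 6 (-0.61 ± 0.19) and Ifi44 in 6 (-0.98 ± 0.32), each with an adjusted p of 0.75. The 5 OAS enzymes were all negative, from -0.47 for Oas2 to -0.01 for Oasl2. The PARP group differed in sign, with Dtx3l at 0.37 ± 0.18, Parp14 at 0.30 ± 0.18 and Parp9 at 0.14 ± 0.14. The prefasted wild-type library of 6 h, whose title conflicts with its drug label, was high for these 3 genes and Samd9l and low for others: Dtx3l stood at 3416 normalized reads there against 1161 with ad libitum food, Samd9l at 2618 against 959, Zbp1 at 330.1 against 506 and Bst2 at 127 against 405. Zbp1 over all pairs was at 0.03 ± 0.18. Of cell type markers, 0 of 7 Paneth cell (median log2 -0.75), 0 of 6 fat tissue (-1.90) and 2 of 10 macrophage markers (-0.46) were positive. For T cell markers it was 6 of 9 (0.07). In limma 0 of these markers passed, and their part in the result was not tested.

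Fasting without drug was compared with ad libitum food in 1 pair per genotype. Zbp1 fell and was the 1 gene of the group past the threshold, where 0.117% of all genes fell and 0.226% rose. It had 558 normalized reads in the fasted Ddit4-/- and 207 in the fasted wild-type library, against 1297 in Ddit4-/- and 811 in wild type with ad libitum food, without overlap, as was so downward for 8 of the 37 genes and 19.5% of all genes (log2 -1.59 ± 0.25, adjusted p = 0.0099). Ifit2, at 50.6 in Ddit4-/- and 11.4 in wild type (15 reads) against 107 in Ddit4-/- and 73.4 in wild type with ad libitum food, had -1.83 ± 0.42 (adjusted p = 0.10). Parp14 (-0.58 ± 0.24, adjusted p = 0.60) and Stat2 (-0.57 ± 0.26, adjusted p = 0.66) followed, and the median was -0.19 with 29 of 37 negative. Of the 37, 4 were at an unadjusted p under 0.05, against 7.06% of all genes. The call on Zbp1 was lost without any 1 of the 4 libraries compared, without the 3 with few Y-linked reads and without the 2 with pancreatic transcripts. In the last case, and without the fasted Ddit4-/- library alone, Ifit2 passed in its place (log2 -2.58 and -2.61). Over the 30 alternatives its value lay between -1.96 and -1.36.

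After 2 h of refeeding no gene of the group passed against fasted mice (0 in limma, edgeR and DESeq2), where 0.251% of all genes changed in limma. Of the 37, 6 were at an unadjusted p under 0.05, against 8.67% of all genes. The median was -0.35, with 31 of 37 negative. Parp12 was at 1796 normalized reads in the refed Ddit4-/- and 1664 in the refed wild-type library, against 2554 in the fasted Ddit4-/- and 2429 in the fasted wild-type library (log2 -0.53 ± 0.15, adjusted p = 0.23). Sp100 (-0.80 ± 0.24, adjusted p = 0.26), Gbp3 (-1.10 ± 0.42, adjusted p = 0.44) and Xaf1 (-0.76 ± 0.31, adjusted p = 0.47) were next.

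After 6 h of refeeding 2 genes rose against fasted mice and 0 fell, where 3.56% of all genes rose and 3.46% fell (7.02% in either direction). Of the 37, 10 were at an unadjusted p under 0.05, against 25.1% of all genes, so neither count stood far from the share over all genes. In edgeR 1 of the 37 and 634 of all genes passed, and in DESeq2 5 of the 37 and 1395 of all genes. Ifit2 was at 122 in the refed Ddit4-/- and 125 in the refed wild-type library, against 50.6 in Ddit4-/- and 11.4 in wild type fasted (log2 2.30 ± 0.42, adjusted p = 0.0079), and Stat2 at 771 in Ddit4-/- and 908 in wild type refed, against 367 in Ddit4-/- and 530.4 in wild type fasted (0.92 ± 0.26, adjusted p = 0.042), both without overlap, as was so upward for 11 of the 37 genes and 23.2% of all genes. Dtx3l (1.03 ± 0.31, adjusted p = 0.057) and Ifih1 (0.71 ± 0.23, adjusted p = 0.072) did not pass, the median was 0.15, and Oas2 had -1.03 ± 0.44. Of the 4 libraries compared, 2 hold pancreatic transcripts (Ddit4-/- fasted and wild-type refed 6 h), and without both the count was 1 and the median -0.03. Leaving out the 3 with few Y-linked reads gave 0. The count was 1 without the ad libitum untreated wild-type library, either fasted library, either untreated library refed for 2 h or either ad libitum doxorubicin library of 12 h or of 24 h. It was 5 (4 higher, 1 lower) without the untreated Ddit4-/- library refed for 6 h and 3 (1 higher, 2 lower) without the wild-type one, with edgeR it was 1 and with DESeq2 5.

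Presence of the ISRE core in the printed window was set beside the calls as a description. Between genotypes 3 of the 15 genes with a core rose (Oas1a, Ddx58, Trim30a; median log2 0.42), as did 3 of the 15 without one (Oasl2, Ifi44, Lgals3bp; median 0.23) and 3 of the 7 with no promoter entry (Zbp1, Rtp4, Dhx58; median 0.55). After doxorubicin with ad libitum food the counts were 3 (Oas1a, Oas3, Stat2; median 0.68), 4 (Oasl2, Irf7, Irf9, Parp12; median 0.41) and 3 (Oas2, Rtp4, Usp18; median 0.54).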

How the data were processed

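RNA from whole proximal small intestine was poly-A selected and sequenced as 150-base pairs in non-directional libraries, per the labels' protocols. Trim Galore, STAR, DESeq2 and the build mm10 are named in the submitters' processing notes. The counting method and annotation are not given in the sources used here. The deposited table holds signal values, which are read counts the authors divided by 1 factor per library. Reads were recovered from the steps of each library. Values came out whole within a tolerance of 0.01 read for 100.0% of entries, the largest departure being 6.89e-05. Totals ranged from 11.42 to 23.43 M reads (M stands for 1e+06).

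Values were tested as log2(value + 1), for 11939 genes with a mean of at least 10, with limma 3.58.1 (eBayes with trend, two-sided) under R 4.3.3. Adjusted p-values are Benjamini-Hochberg values over these genes, called under 0.05. The model held 12 conditions plus genotype over 23 libraries (10 residual degrees of freedom), a genotype by drug term (9) or 7 feeding pairs (6). Each group is 1 library, so a p-value here reflects the spread among single libraries, which may be technical and includes differences between conditions in the knockout effect. edgeR 4.0.16 and DESeq2 1.42.0 were run on the recovered reads as alternatives, and the limma fit was tested on simulated data. Other alternatives were a pseudocount of 4, no filter on low values, quantile normalization and leaving out libraries.

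The members and lists were chosen with earlier results of these data known. Named genes were the members past the threshold, up to 12 by smallest p, or the 4 with the smallest p where fewer than 4 passed, a fixed set of 20 well-known members, and up to 3 genes of each list. Further members are given with their role. Promoter letters came from RefSeq (GRCm38.p6). Mx2 and the Ddit4-/- ad libitum library at 2 h of doxorubicin were not analysed here. 1 listed gene is not reported here.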

Additional observations from a re-analysis of the deposited data

How the results depend on the processing

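Counts are of the 37 genes past the threshold. Between genotypes (9) the count was 14 with DESeq2, 6 without the libraries with pancreatic transcripts (3 of them among the 9), 1 without those that lack Y-linked reads, 1 in doxorubicin pairs alone, 0 in untreated pairs alone, 2 in ad libitum pairs alone, 0 in prefasted doxorubicin pairs alone and 1 without the libraries with conflicting titles, and 3 to 10 leaving out 1 library. For the drug by genotype term (0) it was 1 without those that lack Y-linked reads, and 0 leaving out any 1 library. For doxorubicin in prefasted mice (2) it was 5 with quantile normalization, 10 with DESeq2, 0 without those that lack Y-linked reads, 11 without those with pancreatic transcripts, 0 without those with conflicting titles and 0 to 10 leaving out 1 library. For doxorubicin with ad libitum food (10) it was 0 without those that lack Y-linked reads and 0 to 13 leaving out 1. For 24 h minus 6 h (0) it was 4 with DESeq2 and 0 leaving out any 1. For fasting (1) it was 2 with quantile normalization, 2 with DESeq2, 0 without those that lack Y-linked reads and 0 to 1 leaving out 1. For 6 h of refeeding (2) it was 1 with no filter, 1 with edgeR, 5 with DESeq2, 0 without those that lack Y-linked reads, 1 without those with pancreatic transcripts and 1 to 5 leaving out 1, with up to 2 of them lower. The counts for the prefast and for 2 h of refeeding were 0 in every alternative run. Calls over all genes moved in the same settings. Between genotypes they numbered 69, with 317 in DESeq2, 56 without the libraries with pancreatic transcripts and 16 without those that lack Y-linked reads. Doxorubicin pairs alone gave 12, untreated pairs 1, ad libitum pairs 12 and prefasted doxorubicin pairs 0, and leaving out conflicting titles gave 20. For doxorubicin in prefasted mice they numbered 75, with 383 in DESeq2 and 258 without pancreatic libraries. With ad libitum food they numbered 984, and 672, 636 and 566 without the Ddit4-/- doxorubicin library of 6, 12 or 24 h. For 6 h of refeeding they numbered 838, with 634 in edgeR and 1395 in DESeq2. The cause was not tested. Of the values of single named genes, 1163 kept their direction and side of the threshold, 247 fell short of it, 25 newly passed and 0 reversed. Medians over the 37 genes moved by more than the spread in 4 values and by less in 266: the drug by genotype median was 0.42 without those that lack Y-linked reads, and the fasting median was between -0.12 and -0.11. Genes with few reads, such as Oas2 (5 reads at its lowest) and Ifit2, are limited by depth.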
